A study of Mus musculus with 43 samples.

Results

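The 127 genes described here carry rodent-style zinc finger symbols, Zfp followed by a number from 700 to 999 and nothing more. The rule of membership uses the name and no measured value, and takes every autosomal protein_coding gene of GENCODE vM21 with such a symbol, out of 20807 autosomal protein_coding genes, and each of the 127 has a row in the gene tables of the RNA libraries. Another 2 genes with such a symbol are not protein_coding and 1 is not on an autosome, and these were left out. The lowest number carried by a member is Zfp703 and the highest is Zfp995. The next lower Zfp symbol outside the range is Zfp697.

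The study deleted Prmt1, the main enzyme of asymmetric arginine dimethylation, in mouse germ cells and compared Prmt1-dKO with WT testes on the C57BL/6J background. The dKO mice carry Ddx4-CreERT2, a tamoxifen-inducible Cre expressed from the germ cell gene Ddx4, and Prmt1 lox/lox alleles, and the labels describe tamoxifen on 3 days for both genotypes. At postnatal day 7 (P7) there are 3 WT and 3 dKO bulk RNA-seq libraries of total testis RNA, although their labels name spermatogonia, and 2 WT and 2 dKO Smart-seq2 libraries of sorted GFP-positive spermatogonia. In the study's methods the controls of the sort were heterozygous Prmt1 +/lox mice with the same Cre, while the labels call them WT. The 33 CUT&Tag peak lists cover 7 histone marks in C57BL/6J WT cells at P7 and P14, and H4R3me2s also in P7 dKO cells. The P14 lists are titled spermatogonia but give spermatocyte as the cell type, and the peak names inside the 3 H4R3me2s lists labelled P14 carry another age tag (SD17), so the age of those 3 lists cannot be told for sure.

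C2H2 zinc finger proteins bind DNA through tandem fingers, each of which contacts a few bases. Many rodent members carry a KRAB domain, which recruits the corepressor Trim28 and through it the H3K9 methyltransferase Setdb1, and they are best known for silencing retroelements. The genes expanded by local duplication and lie in clusters of near copies, and they are known to be expressed at low levels in most tissues, germ cells included.

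Among the members, 95 of 127 (74.8%) encode a KRAB-like motif (Leu-Tyr, any 2 residues, Val-Met, any residue, Glu) in a transcript of GENCODE vM21, against 89 of 231 (38.5%) of the genes Zfp1 to Zfp699. The median number of C2H2 fingers was 11 in the members and 10 in Zfp1 to Zfp699, and 8 members, Zfp703 and Zfp704 among them, had no finger of the canonical spacing. The members lie on 16 autosomes, with 97 of them in 17 clusters in which neighbours are at most 1000000 bp apart. The largest clusters hold 16 members on chromosome 4 (145510759 to 147848366, GRCm38, all KRAB-like), 13 on chromosome 17 (21567008 to 22867134, all KRAB-like), 11 on chromosome 2 (174643534 to 178078476, 10 KRAB-like) and 8 on chromosome 7 (41633203 to 43618285, 7 KRAB-like).

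Promoter sequences were taken from RefSeq (GRCm38.p6), 250 bases before to 50 bases after a gene's start, and 109 of the 127 members matched at least 1 of them, 127 windows in all. The CCAAT box, the pentamer bound by NF-Y, was found on either strand in 65.4% of the members' windows, in 37.0% of the windows of Zfp1 to Zfp699 and in 37.4% of all 32851 windows of the table. Within the members the share was 73.2% in windows of KRAB-like genes and 40.0% in the others. The matches lay a median of 73 bases before the start, with 93 of 127 matches within 150 bases before it and 0 in the 50 bases after it. The following windows are shown because they belong to members on which the results below turn, with CCAAT or its reverse complement ATTGG in capitals. Zfp968 (chr2:175372186-175372485, plus strand) and Zfp965 (chr2:175469775-175470074, plus strand) are neighbours in the chromosome 2 cluster, Zfp956 (chr6:47953140-47953439, plus strand) was higher in dKO testes, Zfp882 (chr8:71908356-71908655, plus strand) and Zfp827 (chr8:79028187-79028486, plus strand) were lower in dKO testes, and Zfp963 (chr8:69749913-69750212, minus strand) and Zfp959 (chr17:55891843-55892142, plus strand) carried H4R3me2a in all P7 lists.
Zfp968: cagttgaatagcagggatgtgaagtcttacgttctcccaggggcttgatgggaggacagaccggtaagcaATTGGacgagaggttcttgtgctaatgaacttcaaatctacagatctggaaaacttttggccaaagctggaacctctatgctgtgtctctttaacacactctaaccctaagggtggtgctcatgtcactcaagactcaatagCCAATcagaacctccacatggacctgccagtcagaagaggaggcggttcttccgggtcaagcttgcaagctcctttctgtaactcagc
Zfp965: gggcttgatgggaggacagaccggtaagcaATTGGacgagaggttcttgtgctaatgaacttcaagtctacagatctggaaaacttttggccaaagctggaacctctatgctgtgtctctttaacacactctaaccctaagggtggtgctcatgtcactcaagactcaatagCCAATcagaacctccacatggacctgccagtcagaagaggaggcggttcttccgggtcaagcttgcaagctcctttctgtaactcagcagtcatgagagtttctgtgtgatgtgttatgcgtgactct
Zfp956: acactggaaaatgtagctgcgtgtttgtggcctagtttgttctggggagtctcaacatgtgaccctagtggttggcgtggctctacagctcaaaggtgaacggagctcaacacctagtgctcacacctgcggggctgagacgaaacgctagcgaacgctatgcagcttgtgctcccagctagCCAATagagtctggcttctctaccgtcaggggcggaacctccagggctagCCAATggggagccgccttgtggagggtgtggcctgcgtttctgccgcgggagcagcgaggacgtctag
Zfp882: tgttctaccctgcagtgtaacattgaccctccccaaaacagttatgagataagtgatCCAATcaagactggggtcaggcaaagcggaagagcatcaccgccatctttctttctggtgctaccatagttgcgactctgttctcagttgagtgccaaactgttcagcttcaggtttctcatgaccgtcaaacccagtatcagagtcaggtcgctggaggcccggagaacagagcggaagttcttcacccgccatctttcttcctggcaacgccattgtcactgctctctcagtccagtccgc
Zfp827: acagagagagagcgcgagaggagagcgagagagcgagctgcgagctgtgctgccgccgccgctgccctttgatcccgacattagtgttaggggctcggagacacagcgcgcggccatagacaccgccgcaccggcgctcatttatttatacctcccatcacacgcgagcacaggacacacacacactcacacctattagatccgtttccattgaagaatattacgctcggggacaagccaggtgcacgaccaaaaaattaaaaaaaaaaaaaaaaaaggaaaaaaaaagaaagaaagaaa
Zfp963: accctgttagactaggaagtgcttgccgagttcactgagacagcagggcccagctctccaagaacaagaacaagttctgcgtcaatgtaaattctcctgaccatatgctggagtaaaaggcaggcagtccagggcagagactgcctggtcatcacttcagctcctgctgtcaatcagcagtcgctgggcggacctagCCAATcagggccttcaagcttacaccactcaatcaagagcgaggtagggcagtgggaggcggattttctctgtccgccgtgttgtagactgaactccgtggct
Zfp959: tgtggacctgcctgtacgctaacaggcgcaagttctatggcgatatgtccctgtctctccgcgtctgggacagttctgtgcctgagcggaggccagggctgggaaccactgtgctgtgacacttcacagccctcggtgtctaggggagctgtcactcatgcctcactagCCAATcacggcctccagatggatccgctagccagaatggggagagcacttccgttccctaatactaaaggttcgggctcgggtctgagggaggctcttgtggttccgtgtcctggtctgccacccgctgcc

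The windows of Zfp968 and Zfp965 are the same sequence read from starts 40 bases apart, with 259 of 260 facing bases equal, and each holds the box on both strands. The window of Zfp956 holds 2 boxes and those of Zfp882, Zfp963 and Zfp959 hold 1 each, while that of Zfp827 holds none and has 23 CpG dinucleotides. Across the chromosome 2 cluster, 26 of 36 pairs of windows were at least 90% identical, with a median of 97.6%, whereas in the cluster on chromosome 4 this held for 1 of 45 pairs (median 34.2%) and in the larger cluster on chromosome 17 for 1 of 78 (median 32.5%), the pair of Zfp942 and Zfp944. Other motifs, longer and so rarer in any window, were searched on both strands. CCGGAAGT, an ETS site, was in 4.72% of the members' windows against 13.5% in Zfp1 to Zfp699 and 3.89% of all windows, CGCATGCG, an NRF1 site, in 1.57% against 6.09% and 1.87%, and TATAAA, the TATA box, in 5.51% against 7.39% and 13.6%. None of these 4 motifs contains another, and a match is a description of the letters, not of binding. The members' windows had a median GC content of 51.7% and 9 CpG dinucleotides, against 56.7% and 17 for Zfp1 to Zfp699.

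The RNA libraries held 12396345 to 16598249 expected counts in bulk RNA-seq and 15610392 to 18547103 in Smart-seq2, and edgeR's coefficient of variation between replicates came to 0.155 in the former and 0.767 in the latter. Counts were summed per gene by RSEM, which estimates how reads that match several genes are shared, so values of single genes within the chromosome 2 cluster may be uncertain. Prmt1 itself had 234 ± 14.1 CPM in WT and 167 ± 27.9 in dKO testes (SD, n = 3 each, log2 fold change -0.49, SE 0.13, edgeR FDR = 0.0334), and 183 ± 47.5 and 99.5 ± 18.3 CPM in sorted cells (n = 2 each, log2 fold change -0.88, SE 0.26, edgeR FDR = 0.133), and since the floxed segment is only a part of the gene this checks the labels in part. In the sorted WT libraries the 14 germ cell markers summed to 1886 to 1974 CPM, with none at 0, and all 6 macrophage and all 5 endothelial markers were at 0, while the sorted dKO libraries had 30.6 to 35.5 CPM of macrophage markers (Adgre1 at 0), 3.15 to 3.64 CPM of endothelial markers (Emcn at 0) and 2615 to 2800 CPM of germ cell markers. Nothing in the labels says which libraries of a group came from separate animals, so p-values measure the spread between libraries.

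Nearly all members were expressed in the testis at P7. In WT bulk libraries 118 of 127 members (92.9%) reached a mean of 1 TPM (a level scaled by transcript length), against 63.1% of all autosomal protein_coding genes, and the dKO count was also 118. The median over members was 6.40 TPM in WT, close to the 6.24 TPM of all autosomal protein_coding genes, but among genes of at least 1 TPM in a library the median was 6.99, 7.22 and 6.19 TPM in members and 23.9, 24.1 and 22.8 TPM in all genes of the 3 WT libraries. Sorted spermatogonia showed fewer of them, with 84 members at 1 TPM in WT (66.1%, all genes 54.1%) and 101 in dKO (79.5%, all genes 57.6%). The number of members with any count was 98 and 91 in the WT libraries and 123 and 118 in the dKO libraries. Over all autosomal protein_coding genes the same numbers were 12271 and 11419 in WT and 14635 and 14041 in dKO, so the lower number in WT was not limited to the members. Only Zfp735 had no count in any of the 10 libraries (12.5% of all autosomal protein_coding genes had none), which says no more than that it was below detection.

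**Figure D1:**
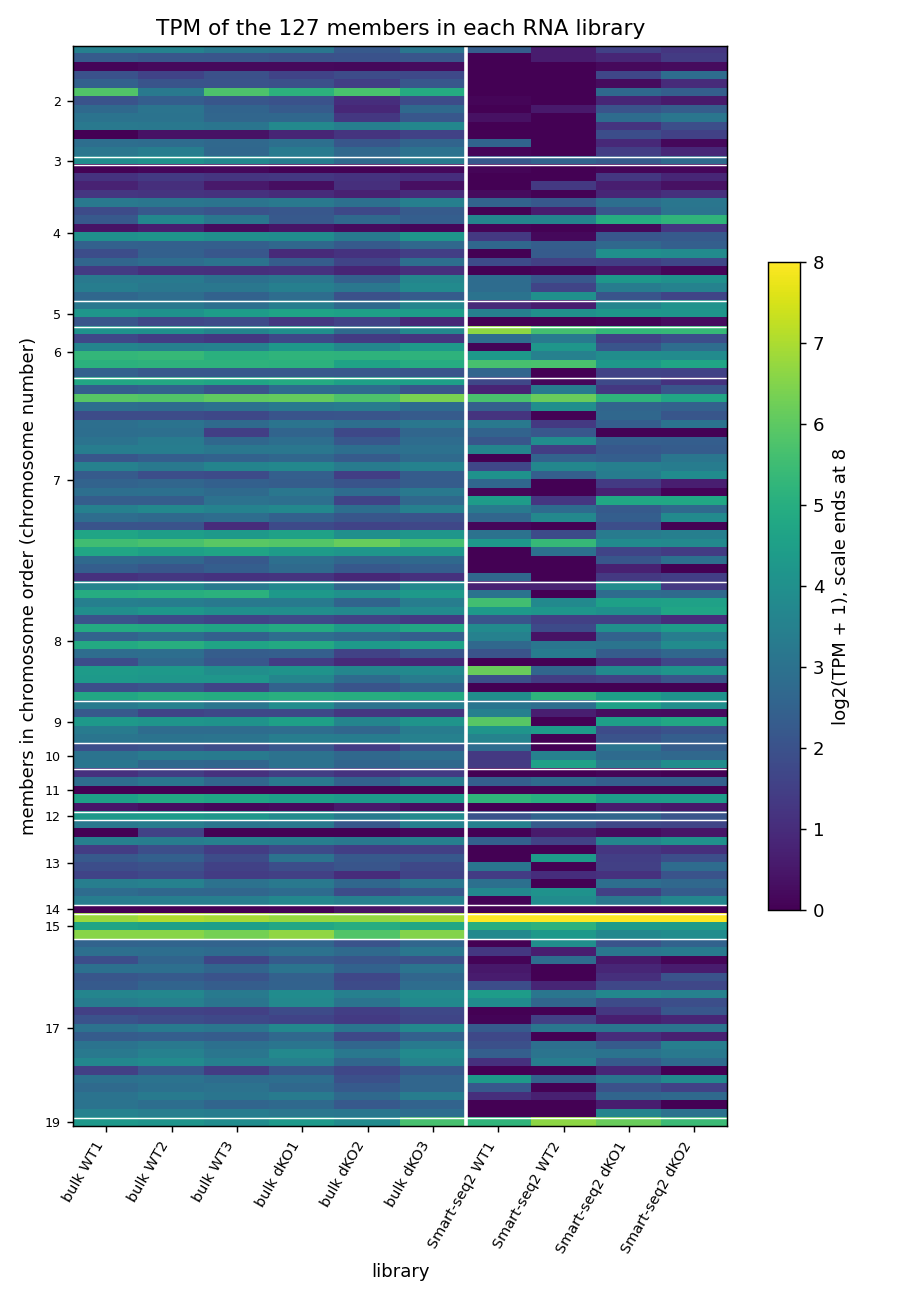
Level of each member (colour, log2(TPM + 1), the scale ends at 8) in the 10 RNA libraries, with members as lines in chromosome order and white lines between chromosomes and between assays. The bulk libraries look alike along each line, the sorted WT libraries have the most members at 0, and the brightest line, on chromosome 15, is Zfp706.

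Zfp706 (ENSMUSG00000062397.8, chr15:36997027-37007773), a small zinc finger protein known for helping embryonic stem cells leave self-renewal, was the most abundant member in both assays. In bulk RNA it had 111, 131 and 121 TPM in WT and 105, 104 and 124 TPM in dKO, and in sorted spermatogonia 560 and 565 TPM in WT and 390 and 366 TPM in dKO. The bulk TPM values of the genotypes overlap, and those of the sorted cells do not. The log2 fold change of its counts was -0.27 in bulk (SE 0.10, edgeR FDR = 0.0869) and -0.55 in sorted cells (SE 0.15, edgeR FDR = 0.10), and in sorted cells the FDR from DESeq2 was 0.00165, short of 2-fold. It had 278 and 267 CPM in WT and 195 and 177 in dKO sorted cells.

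The next highest members in bulk RNA were Zfp740 (95.3, 94.6 and 79.7 TPM in WT), Zfp787 (59.9, 55.8 and 65.7 TPM) and Zfp771 (45.7, 51.7 and 60.4 TPM). Zfp969 is listed with 55.7, 8.42 and 53.0 TPM in WT, but these levels rest on 10, 2 and 11 counts and it cannot be ranked beside the others. In sorted WT cells Zfp706 was followed by Zfp800 (99.7 and 48.0 TPM), Zfp950 (36.4 and 99.4 TPM), Zfp787 (51.0 and 71.0 TPM) and Zfp746 (50.2 and 50.6 TPM), and the spread between the WT libraries does not order the last 4 of these. Zfp746, also known as PARIS, is a repressor linked to mitochondrial biogenesis, and in dKO sorted cells it had 18.9 and 24.9 TPM (log2 fold change of counts -0.57, SE 0.30, edgeR FDR = 0.362). The counts of Zfp746 were 854 and 959 in WT and 473 and 501 in dKO sorted cells, without overlap.

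In whole testes few members passed the test between genotypes. Of 16554 genes with enough counts, 119 were members, and edgeR called 0 of them higher and 1 lower at an FDR below 0.05 and at least 2-fold, where the share of all tested genes was 5.32% higher and 1.78% lower. DESeq2 also called 0 higher and 1 lower (all genes 6.18% and 1.34%), and at an unadjusted p below 0.05 edgeR had 18 members higher and 10 lower (all genes 18.2% and 15.7%). With no fold threshold, 10 members rose (8.40% of those tested, against 10.6% of all genes) and 4 fell (3.36%, against 8.51%), and DESeq2 gave the same 14 genes (10.2% and 7.65% of all genes it tested). Leaving out 1 library at a time gave 2 such members without WT replicate 2 (1.67% of members, all genes 8.34%) and 28 without dKO replicate 2 (23.5%, all genes 31.6%), with the other fits in between. Of the 10 that rose, 9 are KRAB-like, and none of the 4 that fell is. Among the 89 KRAB-like members tested 9 rose and 0 fell at this FDR, with 16 higher and 1 lower at an unadjusted p below 0.05. Among the 30 others 1 rose and 4 fell, with 2 higher and 9 lower at an unadjusted p below 0.05.

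The median log2 fold change was 0.13 in KRAB-like members (58 of 89 above 0), -0.08 in the other members (13 of 30 above 0), -0.02 in Zfp1 to Zfp699 and 0.02 in all tested genes. The CPM values of the genotypes did not overlap, with dKO above WT, in 26 of the 119 members, near the 20.9% of all tested genes, and with dKO below WT in 18, against 19.9%. Split by motif, dKO lay above WT in 21 and below in 7 of the KRAB-like members, and above in 5 and below in 11 of the others. Leaving out 1 library at a time moved the median of all members between 0.01 and 0.15, and it was lowest without dKO replicate 1 and highest without dKO replicate 2.

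**Figure D2:**
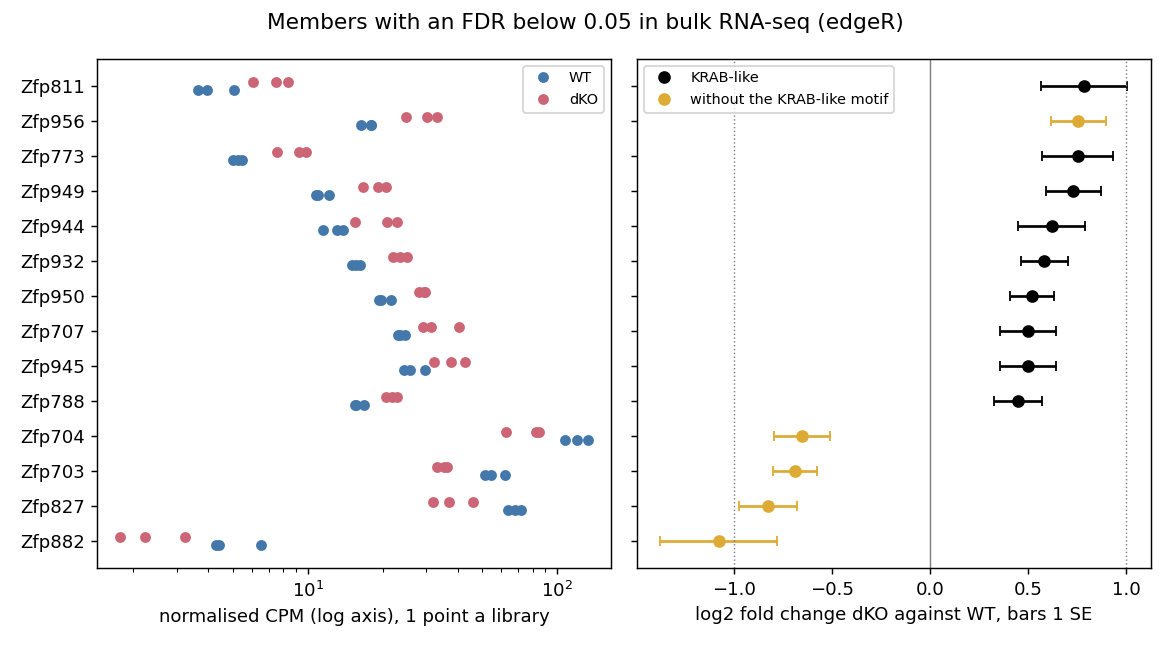
Members with an FDR below 0.05 in bulk RNA-seq, with the CPM of each library on a log axis at the left (WT and dKO in different colours) and the log2 fold change with 1 SE at the right, dotted lines marking 2-fold. The 10 that rose lie between 0.45 and 0.79, the 4 that fell between -0.65 and -1.08, and no member has overlapping genotypes.

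Zfp956 (ENSMUSG00000045466.18, chr6:47953390-47965300), which lacks the KRAB-like motif and has 6 fingers, had 17.9, 16.4 and 17.9 CPM in WT and 30.1, 24.8 and 33.2 CPM in dKO testes. Each dKO library lay above each WT library, and the log2 fold change was 0.76 (SE 0.14, edgeR FDR = 0.00715). Zfp949 (chr9:88548020-88571061) rose from 10.8, 11.0 and 12.2 CPM to 16.7, 19.1 and 20.6 CPM (log2 fold change 0.73, SE 0.14, edgeR FDR = 0.00840). Zfp932 (chr5:109996521-110010411), a KRAB zinc finger protein known to repress endogenous retroviruses, rose from 16.3, 15.6 and 15.1 CPM to 22.1, 25.0 and 23.4 CPM (log2 fold change 0.58, SE 0.12, edgeR FDR = 0.0116). Neither of these has overlapping genotypes either. The FDR of Zfp956 rose above 0.05 without WT replicate 2 (0.0502) and that of Zfp949 without WT replicate 1 or 2 (0.0539 and 0.0512), and that of Zfp932 did so without any one WT library (0.0551 to 0.0611) and with the replicate block (0.0524). In Zfp950 (chr19:61053840-61140840) the CPM values were 19.3, 21.6 and 19.7 in WT and 29.7, 28.1 and 29.3 in dKO (log2 fold change 0.52, SE 0.11, edgeR FDR = 0.0141), and in Zfp773 (chr7:7127073-7136755) they were 5.28, 5.45 and 5.03 in WT and 7.52, 9.24 and 9.83 in dKO (log2 fold change 0.75, SE 0.18, edgeR FDR = 0.0205). Zfp950 and Zfp773 also lost this FDR without any one WT library (0.0536 to 0.0951 and 0.0748 to 0.0830) and with the replicate block (0.0639 and 0.0632). The other 5 that rose, Zfp811, Zfp944, Zfp707, Zfp945 and Zfp788, had log2 fold changes of 0.45 to 0.79, and the largest of the 10, Zfp811, went from 3.95, 5.09 and 3.65 CPM to 7.44, 6.05 and 8.37 CPM.

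Zfp944 and Zfp945 belong to the cluster of 13 KRAB-like genes on chromosome 17. There 12 of 13 members had a log2 fold change above 0 in bulk RNA (median 0.31). The same held for 58 of 89 tested KRAB-like members and 8631 of 16554 genes tested. The cluster was singled out through Zfp944 and Zfp945 in the same libraries, so nothing is read from its count. The 2 named are the ones at an FDR below 0.05, where 10.6% of all genes tested were higher and 8.51% lower. The CPM of the 13 members summed to 144, 158 and 136 in WT and 192, 155 and 213 in dKO, so dKO replicate 2 lay within the WT range. In sorted cells the sums were 93.4 and 95.5 CPM in WT and 140 and 150 CPM in dKO.

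Zfp882 (ENSMUSG00000089857.9, chr8:71908608-71916354), the member past both thresholds in bulk RNA, had 4.42, 6.50 and 4.27 CPM in WT and 3.21, 2.23 and 1.78 CPM in dKO testes (log2 fold change -1.08, SE 0.30, edgeR FDR = 0.0357). It lost the call in 4 of the 6 fits without 1 library and in the fit with the replicate block. Zfp827 (chr8:79028437-79193766), whose human counterpart is known from telomere chromatin and the NuRD complex, fell from 72.0, 68.2 and 63.6 CPM to 46.3, 31.8 and 36.9 CPM (log2 fold change -0.82, SE 0.15, edgeR FDR = 0.00614). Zfp703 (chr8:26977325-26981461), a transcriptional corepressor of the NET family with no canonical finger, fell from 51.5, 54.7 and 61.9 CPM to 36.1, 33.1 and 35.1 CPM (log2 fold change -0.69, SE 0.11, edgeR FDR = 0.00461). Zfp704 (chr3:9427020-9610085) fell from 121, 133 and 108 CPM to 82.9, 62.8 and 84.9 CPM (log2 fold change -0.65, SE 0.14, edgeR FDR = 0.0143), which became 0.0646 and 0.0764 without WT replicate 1 or 2, while Zfp827 and Zfp703 stayed below 0.05 in all fits. None of these 3 has overlapping genotypes. The lowest unadjusted p among the remaining members on the lower side belonged to Zfp839, with 33.7, 33.3 and 33.1 CPM in WT and 27.6, 23.7 and 27.9 in dKO (log2 fold change -0.34, SE 0.11, edgeR FDR = 0.0696).

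All 4 members that fell had a lower TPM in sorted WT spermatogonia than in WT testes, with medians of 2.98 and 15.8 TPM, while 8 of the 10 that rose and 71 of the other 105 tested members did so as well. In the same bulk libraries the markers of Sertoli cells summed to 4996 to 5661 CPM in WT and 3833 to 4253 in dKO, those of Leydig cells to 438 to 541 and 193 to 216, and those of peritubular myoid cells to 1103 to 1238 and 402 to 817, with no marker of these lists at 0. Of 10 Sertoli, 6 Leydig and 6 peritubular genes, 5, 4 and 5 fell at an FDR below 0.05 and 0, 1 and 0 rose. Macrophage markers summed to 80.3 to 99.7 CPM in WT and 81.1 to 112 in dKO, and endothelial markers to 181 to 195 and 166 to 206. Germ cell markers summed to 1560 to 1793 and 1576 to 1661 CPM. In these lists the genotypes overlapped. Of 6 macrophage, 5 endothelial and 14 germ cell genes, 1, 1 and 1 fell and 0, 1 and 0 rose. The part of these cell types in the 4 lower members was not tested, and in whole testes fewer cells of a type and less RNA per cell cannot be told apart. In sorted cells none of the 4 fell, with log2 fold changes of 6.84 for Zfp882, 0.08 for Zfp827, 1.71 for Zfp703 and 0.88 for Zfp704 and edgeR FDR values of 0.0835, 0.977, 0.758 and 0.616. Leaving out 1 sorted library at a time gave 6.02 to 8.98, -0.29 to 0.62, 0.72 to 10.93 and 0.34 to 1.80, in the same order.

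In sorted spermatogonia edgeR called 0 of 109 tested members in either direction, as it called 0% of all 16443 genes tested. At an unadjusted p below 0.05 it had 18 members higher and 3 lower (all genes 16.4% and 7.35%), and DESeq2 called 13 higher and 2 lower at an FDR below 0.05 and 2-fold, 11.7% and 1.8% of the 111 members it tested against 7.28% and 3.9% of the 16960 genes it tested. The median log2 fold change was 0.75 in KRAB-like members (59 of 80 above 0), -0.23 in the other members (12 of 29 above 0), 0.01 in Zfp1 to Zfp699 and 0.15 in all tested genes. The dKO libraries lay above both WT libraries in 47 of the tested members (43.1%, all genes 36.3%) and below both in 12 (11.0%, all genes 20.3%). Since a gene can pass the count filter through the dKO libraries alone, the count was also taken with no filter, where it was 55 of 127 members above (43.3%, all autosomal protein_coding genes 25.9%) and 12 below (9.45%, all genes 13.4%), and among genes of 1 to 20 TPM in WT testes it was 42.2% of members against 33.5% of genes above and 6.86% against 15.8% below. With the filter, 39 of 80 tested KRAB-like members lay above and 6 below, where all tested genes had 36.3% and 20.3%. Of the 29 other tested members, 8 lay above and 6 below. Genes that passed the filter through the dKO libraries alone may be among these. Without WT replicate 1 edgeR called 54 members higher and 12 lower, 45.8% and 10.2% of those tested against 29.5% and 12% of all genes, and the median log2 fold change was 1.62 in tested members and 0.42 in all tested genes. Without WT replicate 2 it called 40 and 13, 34.2% and 11.1% against 22.5% and 11.2% of all genes, with medians of 0.91 and 0.26. In both fits the lone WT library was assumed to vary like the dKO libraries. In the same libraries Sertoli markers summed to 339 to 363 CPM in WT and 565 to 697 in dKO with none at 0, Leydig markers to 0.366 to 8.17 CPM (5 of 6 at 0) and 10.3 to 13.2 CPM (3 of 6 at 0), and macrophage markers were at 0 in WT alone as given above. Peritubular markers overlapped, at 5.08 to 9.83 CPM in WT and 7.22 to 10.5 in dKO. The part of these cell types in the differences between genotypes was not tested. With 2 libraries a genotype an exact permutation test of a single gene cannot reach below 0.33.

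**Figure D3:**
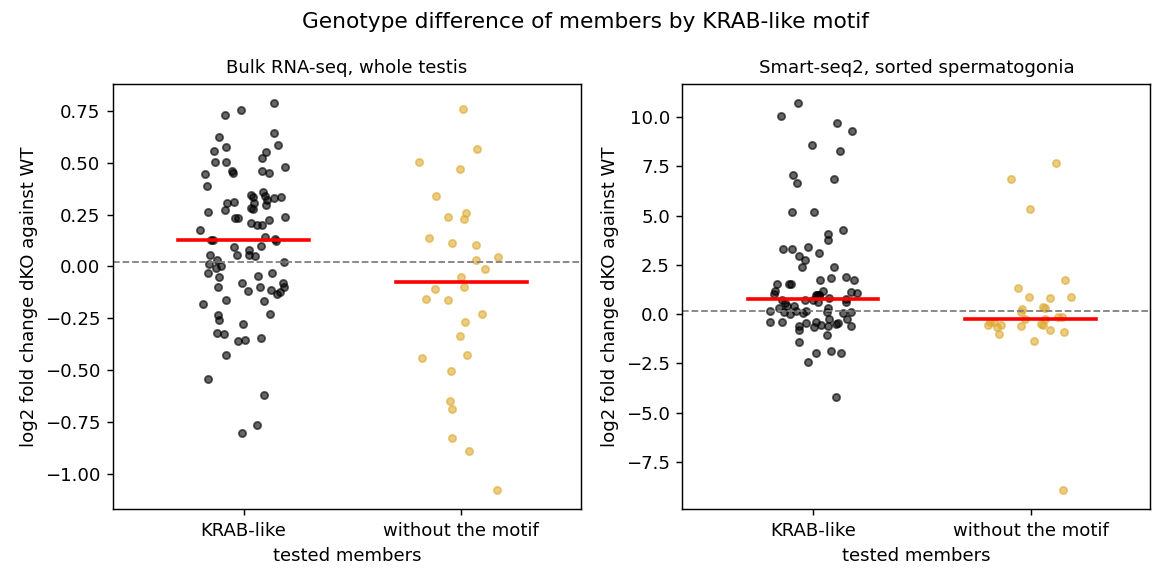
Log2 fold change (dKO against WT) of each tested member, 1 point a member spread sideways for view, by KRAB-like motif, in bulk RNA at the left and sorted cells at the right (different scales), with red lines for medians and a dashed line for the median of all tested genes. The red lines are at 0.13 and -0.08 in bulk RNA and at 0.75 and -0.23 in sorted cells, and points far from 0 in sorted cells include genes at 0 counts in 1 genotype.

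Summed over all KRAB-like members, CPM on the unscaled library totals were 764 and 610 in WT and 893 and 973 in dKO sorted cells, and 780 and 825 against 586 and 577 for the other members. The genotypes did not overlap in either class, with KRAB-like members higher and the others lower in dKO. Zfp1 to Zfp699 were also lower in dKO without overlap, with 7042 and 6584 CPM in WT and 5431 and 5876 in dKO, and so was the sum of all autosomal protein_coding genes, with 878185 and 894489 CPM in WT and 824911 and 813148 in dKO. In bulk RNA the KRAB-like members summed to 1013, 1070 and 959 CPM in WT and 1201, 999 and 1233 in dKO, and the others to 1148, 1145 and 1126 in WT and 1131, 1011 and 1093 in dKO, with dKO replicate 2 the lowest dKO library of both classes. Zfp706 alone gave 5374 and 5096 of the 14465 and 14683 counts of the other class in sorted WT cells and 3035 and 2679 of the 9942 and 9003 in dKO.

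A set of members had no counts in the sorted WT libraries and was detected in dKO. Of 127 members, 17 had 0 counts in both WT libraries (all autosomal protein_coding genes 36.9%), and 7 of these had at least 10 counts in each dKO library, which is 5.51% of the members against 4.35% of all autosomal protein_coding genes. Among genes of 1 to 20 TPM in WT testes the shares were 5.88% and 8.09%, so the members did not stand above genes of their level. Zfp959 (ENSMUSG00000003198.10, chr17:55892093-55898928) had 0 and 0 counts in WT and 225 and 147 in dKO, at least 138-fold higher against a floor of 3 counts over both WT libraries. Zfp747 (chr7:127372537-127376050) went from 0 and 0 to 92 and 145 counts (at least 88.1-fold higher) and Zfp947 (chr17:22144359-22166190) from 0 and 0 to 59 and 124 (at least 68.0-fold higher). The other 4 were Zfp968 (41 and 96 counts in dKO), Zfp980 (55 and 31), Zfp970 (23 and 45) and Zfp831 (23 and 22), at least 50.9-fold, 32.0-fold, 25.3-fold and 16.7-fold higher. All 7 had an edgeR FDR of 0.0774, and 5 of them were called by DESeq2.

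Of these 7 genes, 6 had at least 10 counts in each of the 6 bulk libraries, and Zfp831 had 6, 14 and 14 counts in the WT ones. In WT bulk RNA Zfp959 had 129, 144 and 158 counts, Zfp747 had 130, 127 and 91 and Zfp947 had 47, 54 and 51, and none of the 7 differed between genotypes in bulk at an FDR below 0.05. Zfp951 (chr5:104813169-104860070), a KRAB-like gene, was detected in all libraries and had 18 and 11 counts in sorted WT cells and 385 and 458 in dKO (log2 fold change 5.18, SE 0.80, edgeR FDR = 0.0774, DESeq2 FDR = 1.65e-11). In bulk RNA it had 198, 211 and 178 counts in WT and 217, 144 and 296 in dKO, which overlap. Zfp882 also had 1 and 0 counts in sorted WT cells and 48 and 68 in dKO, opposite to its direction in bulk RNA.

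Fewer members were lower in the sorted dKO libraries. Zfp974 (chr7:27907392-27929460) had 102 and 33 counts in WT and 0 and 0 in dKO (edgeR FDR = 0.0835, DESeq2 FDR = 0.0195). This is at least 40.4-fold lower if only counting error is allowed for. No other member had at least 10 counts in each WT library and 0 in dKO. Of all autosomal protein_coding genes, 0.0818% showed this pattern. Zfp810 (chr9:22276748-22307648) had 447 and 433 counts in WT and 80 and 100 in dKO (log2 fold change -1.96, SE 0.65, edgeR FDR = 0.162, DESeq2 FDR = 0.00588). Zfp872, which lies with Zfp809 and Zfp810 in a cluster of 3 on chromosome 9, had 191 and 25 counts in WT and 8 and 1 in dKO (log2 fold change -4.23, SE 1.79, edgeR FDR = 0.256).

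The WT libraries of the sorted cells differed from each other in many members. In 14 members (11.0%, all autosomal protein_coding genes 4.26%) 1 WT library had at most 1 count and the other at least 100, and the same held for 0 members in the dKO libraries (all genes 0.0674%). Within genes of 1 to 20 TPM in WT testes the WT shares were 11.8% of members and 8.93% of all genes. Zfp809, which silences retroviruses with a proline primer binding site, was such a case, with 817 and 0 counts in WT and 364 and 329 in dKO. Zfp703 had 173 and 0 counts in WT and 231 and 217 in dKO, and Zfp768 had 0 and 226 in WT and 69 and 46 in dKO. For these genes the difference between genotypes depends on which WT library is used.

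The members with roles apart from the KRAB repressors, or with known retroelement targets, were read out whatever their values. Zfp740 had 690 and 902 counts in sorted WT cells and 579 and 584 in dKO, Zfp770 had 258 and 32 in WT and 98 and 63 in dKO, and Zfp830, a nuclear protein linked to genome stability, had 781 and 659 in WT and 419 and 375 in dKO. In CPM the genotypes of Zfp740 and Zfp770 overlap, and those of Zfp830 do not (edgeR FDR = 0.885, 0.884 and 0.480). Zfp750, a regulator of epidermal differentiation, was near the floor with 1 and 0 counts in WT and 24 and 17 in dKO. Zfp819, a KRAB family gene of early embryos that was without the motif here, had 3 and 0 counts in WT and 87 and 0 in dKO, and Zfp932 had 80 and 60 in WT and 78 and 103 in dKO (edgeR FDR = 0.772).

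The cluster on chromosome 2 was the one with the fewest counts in sorted WT cells. Its 11 members summed to 94 and 1 counts in WT, 88 of the 94 from Zfp971, and to 286 and 338 in dKO. Without Zfp971 the sums were 6 and 1 in WT and 270 and 336 in dKO. All 11 had a count in both dKO libraries, 6 had 0 counts in both WT libraries (36.9% of all autosomal protein_coding genes), and dKO lay above WT in 10 of 11 and below in 0 (25.9% and 13.4% of all autosomal protein_coding genes with no count filter). The cluster was singled out for its low WT counts, which favours a higher dKO value, so nothing is read from this count. In bulk RNA the cluster summed to 453, 522 and 444 counts in WT and 423, 271 and 498 in dKO, and the median difference on the log2 scale was -0.08. How reads were shared among these genes was not tested, so the sum is given beside the single genes.

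**Figure D4:**
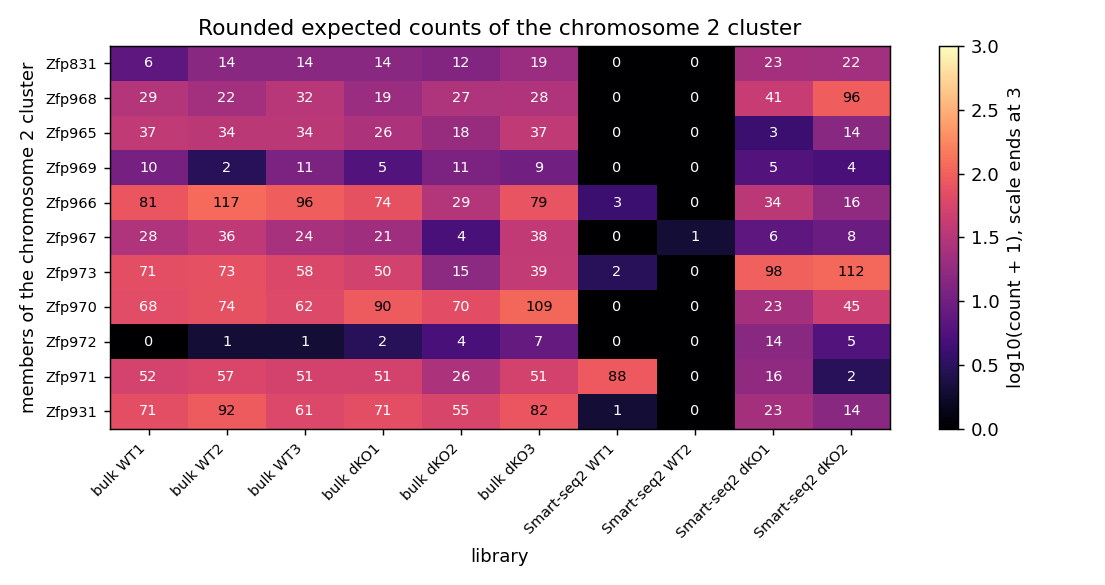
Rounded expected counts of the 11 members of the chromosome 2 cluster in each RNA library, printed in the cells and coloured by log10(count + 1). The sorted WT columns are at or near 0 except for the 88 counts of Zfp971 in WT replicate 1, while each member has a count in both sorted dKO libraries.

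The cluster on chromosome 4 showed a like direction at a higher level, with sums of 69.8 and 40.3 CPM in sorted WT cells and 132 and 134 CPM in dKO. In 12 of its 16 members dKO lay above WT and in 0 below, against the same 25.9% and 13.4% with no count filter. Among its genes tested by edgeR, 9 of 13 lay above and 0 below. Tested KRAB-like members lay above in 48.8% and below in 7.5%. Its bulk sums of 115, 120 and 113 CPM in WT and 121, 101 and 148 CPM in dKO overlapped.

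The genotype difference was then compared between the assays in 1 fit over all 10 libraries. That fit gave each gene 1 estimate of spread for both assays. The coefficients of variation were 0.155 in bulk RNA and 0.767 in sorted cells, so its FDR values may be too small for sorted-cell differences. The interaction passed an FDR below 0.05 and 2-fold in 23 of 121 tested members with a higher log2 fold change in sorted cells and in 2 (Zfp974 and Zfp810) with a lower one, 19.0% and 1.65% of the members against 13.7% and 3.5% of all 19608 genes. In all 23 the sorted dKO libraries lay above the WT libraries, and 9 of the 23 were at 0 in both WT libraries. A limma fit that gives each assay its own weight, added after the data were seen, called 15 and 0 (all genes 6.66% and 1.21%). The edgeR fit called 60 and 12 without sorted WT replicate 1 (all genes 26.8% and 9.05%) and 50 and 11 without sorted WT replicate 2 (all genes 21.5% and 8.95%). Both tests use the same libraries as the comparisons above. The sorted cells and the testes differ in cell makeup, protocol and control genotype, and these cannot be told apart.

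The corepressors through which KRAB proteins act were read from a list of 19 genes. In bulk RNA edgeR called 0 of them at 2-fold, but 6 fell at an FDR below 0.05 and 0 rose (all tested genes 8.51% lower and 10.6% higher), and the median over the 19 was -0.22 on the log2 scale. The 6 were Uhrf1 (log2 fold change -0.87) and Dnmt1 (-0.72), which maintain DNA methylation, Cbx5 (-0.49), a heterochromatin protein, Chd3 (-0.46) and Rbbp4 (-0.36), subunits of NuRD, and Atf7ip (-0.43), a partner of Setdb1. Trim28 had 639 ± 19.6 CPM in WT and 549 ± 44.2 in dKO (SD, n = 3 each, edgeR FDR = 0.169), and Setdb1 had 164 ± 10.2 and 160 ± 22.3 (edgeR FDR = 0.861). In the same bulk libraries 5 of 10 Sertoli, 4 of 6 Leydig and 5 of 6 peritubular markers fell, as given above. Of the macrophage, endothelial and germ cell markers, 1 of 6, 1 of 5 and 1 of 14 fell. The part of these cell types in the lower corepressors was not tested. In sorted cells edgeR called 0 of the 19, as for every gene, with a median of 0.05. Of the 6 that fell in bulk RNA, the log2 fold changes there were 0.62 for Rbbp4, 0.59 for Cbx5, 0.43 for Uhrf1, 0.11 for Chd3, -0.0076 for Dnmt1 and -0.44 for Atf7ip.

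The promoters of the members were marked by H3K4me3, the mark of active starts, more often than those of all autosomal protein_coding genes. A promoter was counted where a peak summit lay within 3000 bp of a start site. The share of members with H3K4me3 was 86.2% ± 1.67 at P7 and 85.4% ± 1.67 at P14 (SD over lists, n = 2 each), against 63.2% and 66.0% of all autosomal protein_coding genes and 94.2% and 94.4% of Zfp1 to Zfp699. H3K27ac, a mark of active regulatory elements, was at 56.7% ± 8.91 of members at P7 and 79.1% ± 2.78 at P14, against 40.6% and 56.7% of all genes and 66.9% and 85.9% of Zfp1 to Zfp699. The 2 H3K27ac lists at P7 gave 50.4% and 63.0% and those at P14 77.2% and 81.1%, so the ages do not overlap, but the P14 lists hold 37984 and 45817 peaks and the P7 lists 21974 and 23780. The difference of 22.4 percentage points was 13.4 with lists cut to equal length, and over all genes it was 16.1 and 8.58. Among genes of 1 to 20 TPM in WT testes, 90.2% of 102 members had H3K4me3 in 2 P7 lists against 79.0% of 5922 genes. At P14 this was 89.2% against 81.7%. For H3K27ac in 2 lists it was 43.1% against 31.3% at P7 and 77.5% against 56.6% at P14.

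The asymmetric and monomethyl arginine marks were at a lower mean share of members than of all genes at both ages, with H3R8me2a at P14 nearly equal. With summits within 1000 bp of a start this did not hold at P14 for H3R8me2a (42.1% of members against 40.7% of all genes) and H4R3me2a was equal (43.0% against 43.1%). At P7 H4R3me2a, the mark deposited by Prmt1, was at 14.7% ± 0.91 of members (n = 3) against 20.8% of all genes, H3R2me2a at 16.1% ± 3.90 against 25.3%, H3R8me2a at 17.3% ± 2.23 against 22.3% and H4R3me1 at 16.1% ± 0.56 against 24.9% (n = 2 each). At P14 these shares were 45.9% ± 7.06 against 50.4%, 45.3% ± 1.67 against 62.1%, 46.9% ± 6.12 against 47.1% and 32.3% ± 1.11 against 43.8%. For each of these 4 marks the lowest P14 list lay above the highest P7 list, but so did the lists over all genes, and the P14 lists are longer (39597 to 44836 against 16995 to 18722 peaks for H4R3me2a). With lists cut to equal length the difference for H4R3me2a was 16.3 percentage points in place of 31.2. An exact two-sided permutation test of lists gave p = 0.1 for H4R3me2a and p = 0.33 for the other marks with higher P14 shares, the smallest values that 3 against 3 and 2 against 2 lists can give.

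Since H3K4me3 was commoner at members and the arginine marks were rarer, the shares were also read among promoters with H3K4me3 in both lists of an age. At P14, 37.4% of 107 such members had H3R2me2a in 2 lists or more against 75.0% of 13323 such genes, 55.1% had H4R3me2a against 71.7%, 34.6% had H3R8me2a against 51.4% and 21.5% had H4R3me1 against 46.0%. Zfp1 to Zfp699 lay between them, at 61.1%, 68.5%, 50.5% and 38.0% of 216 such genes for these marks in the same order, while H3K27ac was at 86.9% against 75.1% and at 87.0% in Zfp1 to Zfp699. At P7 H3K27ac was at 50.9% of 108 such members and 50.7% of 12832 such genes, and H3R2me2a at 7.41% and 16.8%. KRAB-like members lay below the others in each of the 5 arginine marks at P14, with H3R2me2a at 31.6% of 79 and 53.6% of 28 and H4R3me1 at 16.5% and 35.7%. This order did not hold for 3 of the marks at P7, where the shares were 7.5% of 80 and 7.14% of 28 for H3R2me2a, 3.75% and 3.57% for H3R8me2a and 6.25% and 3.57% for H4R3me1, nor for P14 H3R8me2a among genes of 1 to 20 TPM (28.2% of 85 and 23.5% of 17), and the difference between the classes was not tested. Among genes of 1 to 20 TPM in WT testes, with or without H3K4me3, 29.4% of 102 members had H3R2me2a at P14 against 65.8% of 5922 genes.

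**Figure D5:**
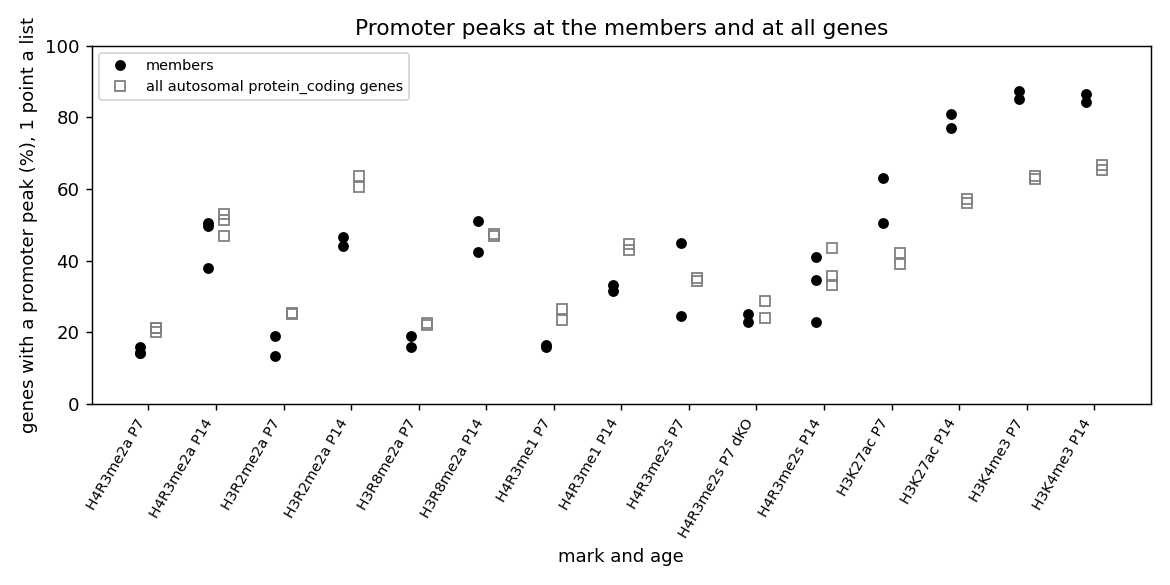
Share of genes with a promoter peak (percent) by mark and age, with 1 point for each peak list, filled for members and open for all autosomal protein_coding genes. The members lie above all genes in H3K4me3 and H3K27ac, and in P14 H3R2me2a the members' lists (44.1% and 46.5%) lie below those of all genes (60.5% and 63.6%).

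For H3K27ac and H4R3me2a more members were marked at P14 alone than at P7 alone, as over all genes. H3K27ac was at 55 members at P7 and 95 at P14 (2 lists or more), with 41 gained and 1 lost, and the gain was 32.3% of members against 19.4% of all autosomal protein_coding genes. With all lists cut to the length of the shortest, 30 gained and 3 lost it, a gain in 23.6% of members against 13.7% of all genes. H4R3me2a was at 14 and 61, with 51 gained and 4 lost, a gain in 40.2% of members that was near the 37.2% of all genes, as were the 22.0% and 21.6% at equal length. H3R2me2a was gained at 27.6% of members and 42.9% of all genes, while H3K4me3 went from 108 members to 107. In 13 members H3K27ac was in both P14 lists and in neither P7 list (10.2%, all genes 7.7%), and no member showed the reverse (all genes 0.336%). At equal list length the 13 were 8 (6.3%, all genes 4.41%). In chromosome order the first 5 of these were Zfp968, Zfp965, Zfp992, Zfp933 and Zfp956, of which Zfp968 and Zfp965 share the near-identical promoter shown above.

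H4R3me2a was in all 3 P7 lists at 2 members, Zfp963 and Zfp959, which is 1.57% of members against 4.46% of all autosomal protein_coding genes. Zfp959 also had H3R2me2a and H4R3me2s in both P7 WT lists, and it is one of 15 members with all 5 arginine marks in 2 lists or more at P14 (11.8%, all genes 17.4%). In sorted cells Zfp963 had 330 and 2 counts in WT and 152 and 247 in dKO, so it differed more between WT libraries than between genotypes, and in bulk RNA it had 80, 125 and 97 counts in WT and 117, 112 and 96 in dKO. The 14 members with H4R3me2a in 2 lists or more at P7 had a median log2 fold change of 0.14 in bulk RNA against 0.08 for the others, and 0.87 against 0.35 in sorted cells. For the 61 members with the mark at P14 the order was the opposite, with 0.03 against 0.13 in bulk RNA and 0.10 against 0.78 in sorted cells. For every mark at P14 the median in sorted cells was lower in members with the mark. It was 0.16 against 2.95 for H3K27ac and 0.29 against 1.85 for H3K4me3. Members without H4R3me2a at P14 also had a lower level in sorted WT cells, with a median of 1.86 TPM against 5.525.

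H4R3me2s, the symmetric mark, was the one mark with dKO lists. It was at 24.4% and 44.9% of members in the P7 WT lists and at 25.2% and 22.8% in the P7 dKO lists, with the WT lists 19981 and 36145 peaks long and the dKO lists 33941 and 28221. Over all genes the means were 34.7% and 26.3%. The difference of -10.6 percentage points in members was about the size of the SD between lists (10.3, exact two-sided permutation p = 0.667), and it was -20.9 without WT list 1 and -0.39 without WT list 2. With lists cut to equal length it was -14.6 in members, with an SD between lists of 4.40, and -10.7 over all genes. The exact p was then 0.33, the smallest that 2 against 2 lists can give, as it also was with a window of 1000 bp (-11.8) and with a q-value of at most 0.01 (-1.97). In the lists labelled P14 the share was 32.8% ± 9.19 (n = 3), not different from P7 beyond that spread.

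Of the members without H3K4me3 at P7, 12 of 19 lay in 1 cluster. In 19 members a promoter peak was in fewer than 2 P7 lists, and the 12 lie in the chromosome 4 cluster, where 4 of 16 members were marked against 104 of 111 members elsewhere. Of the 16, 9 had no H3K4me3 peak in any list of either age. These genes were not all silent, since among members of at least 1 TPM in WT testes 4 of 13 in the cluster and 103 of 105 elsewhere were marked. Zfp982 had 6.24 TPM and Zfp988 4.52 TPM in WT testes with no H3K4me3 peak in any list, and outside the cluster Zfp869, on chromosome 8, had 26.7 TPM with none. Over all members the median was 6.94 TPM with the mark at P7 and 1.32 TPM without it. How many reads of such genes map to 1 place was not tested.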

How the data were processed

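Members were matched to the gene tables by Ensembl ID without version in GENCODE vM21, where 55141 of 55401 IDs matched. The members and gene lists were chosen with earlier results of these data known. Per gene and library, the deposited tables give expected counts beside TPM and FPKM, all from RSEM as run by the authors after alignment with STAR. The submitters' processing notes name fastp 0.23.2, RSEM, DESeq2, HOMER, deepTools, MACS2 2.1.0 and the mm10 build. The deposited peak lists give for each peak a fold enrichment and the −log10 p-value and q-value of MACS2, called by the authors in each sample. FPKM values were not used.

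Expected counts were rounded and fitted with edgeR 4.0.16 (quasi-likelihood test, R 4.3.3), with TMM scaling, after a filter of at least 10 counts (15 in total), separately for bulk RNA-seq and Smart-seq2, and in 1 fit over all libraries for the interaction of assay and genotype. Each test ran over the whole table, FDR is the Benjamini-Hochberg adjusted p, and a call needs an FDR below 0.05 and a 2-fold change. DESeq2 1.42.0, limma 3.58.1, other scaling, no filter, a replicate block and leaving out each replicate were alternatives. The edgeR step was tested on simulated data. CPM values are counts scaled by the TMM-scaled library size, and levels between genes are compared only in TPM. Sums over classes of members are CPM on the unscaled library total. Intervals and floors (3 counts over the libraries of a group) cover counting error only.

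A promoter carried a mark where a peak summit lay within 3000 bp of a start of any of 98086 transcripts of autosomal protein_coding genes. Shares were compared over lists by exact permutation. Other windows, a q-value limit of 0.01 and lists cut to equal length were alternatives.

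Fingers and the KRAB-like motif were read from translated GENCODE vM21 coding sequences, since the planned RefSeq protein table was not used here. Promoter windows come from RefSeq (GRCm38.p6).

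The named members are those called by edgeR, otherwise up to 5 in each direction with the lowest p whose genotypes do not overlap, the 5 of highest TPM in each assay, the 5 with the lowest p in the interaction, 12 with known roles, and those with H4R3me2a in all P7 lists or H3K27ac in all lists of 1 age and none of the other (the first 5 in chromosome order). Others named were chosen after their values were seen. Python 3.11.15 with pandas 2.3.3, numpy 2.4.6, scipy 1.17.1 and matplotlib 3.10.9 was used.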

Additional observations from a re-analysis of the deposited data

Results flagged for a closer look

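The genotype difference differed between sorted spermatogonia and whole testes in 23 members in the higher direction and 2 in the lower, by the interaction term of the edgeR fit over all 10 libraries. These are 19.0% and 1.65% of the 121 members tested, against 13.7% and 3.5% of all 19608 genes tested, so a difference between the assays was common over all genes. The 5 with the lowest p were Zfp959 with a difference of log2 fold changes of 10.73 (edgeR FDR = 0.000147), Zfp747 with 9.63, Zfp951 with 4.96 (edgeR FDR = 0.000373), Zfp947 with 9.21 and Zfp980 with 8.40. In Zfp959, Zfp747, Zfp947 and Zfp980 both sorted WT libraries are at 0, so the size of the fitted value depends on the prior count and is no bound. Zfp951 was counted in all 10 libraries, and it was higher in both sorted dKO libraries and overlapped in bulk RNA.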

How the results depend on the processing

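Of the values of the 37 named members under all alternatives, 521 kept direction and side of the threshold, 49 passed it newly, 22 no longer passed it and 39 changed sign. Of the 39, 35 were past the threshold in neither fit. The other 4 are sorted-cell log2 fold changes that rest on 1 WT library: leaving out each library in turn, Zfp768 ranged from -1.64 to 8.97 (highest without WT replicate 2), Zfp956 from -1.12 to 6.42 (highest without WT replicate 2), Zfp949 from -1.39 to 6.57 (highest without WT replicate 1) and Zfp809 from -0.89 (without WT replicate 2) to 11.56. Among the 35, leaving out 1 library gave in sorted cells -0.30 to 0.11 for Zfp740, -1.33 to 1.66 for Zfp770, -0.83 to 0.32 for Zfp800, -0.29 to 0.62 for Zfp827, -0.15 to 0.66 for Zfp839, -0.16 to 0.34 for Zfp933, -0.049 to 0.82 for Zfp950 and -0.37 to 6.88 for Zfp963. In bulk RNA it gave -0.034 to 0.17 for Zfp740, -0.19 to 0.26 for Zfp800, -0.046 to 0.27 for Zfp809, -0.034 to 0.20 for Zfp810, -0.28 to 0.068 for Zfp872, -0.18 to 0.13 for Zfp968, -0.20 to 0.54 for Zfp969 and -0.29 to 0.23 for Zfp974. The replicate block gave 2.51 for Zfp768, 0.11 for Zfp770, 2.25 for Zfp949 and 2.38 for Zfp956 in sorted cells and -0.019 for Zfp800 in bulk RNA. Zfp968 in bulk RNA was -0.0029 with RLE size factors, -0.020 with no filter and -0.019 with DESeq2.

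With no fold threshold bulk calls were 10 higher and 4 lower. Same-numbered libraries did not deviate together (correlations of 0.08, -0.22 and -0.12 in bulk RNA and 0.02 and 0.02 in sorted cells), so the numbers were not taken as pairs. With the replicate block, bulk calls were 0 higher and 0 lower (all tested genes 4.17% and 1.56%), and sorted-cell calls were 0 and 0. Of the 14 members with an FDR below 0.05 in bulk RNA, 5 remained (Zfp703, Zfp704, Zfp827, Zfp949 and Zfp956). That is 4.2% of tested members against 11% of all tested genes, where the main fit had 11.8% and 19.1%. Leaving out 1 library gave 0 to 2 lower calls in bulk RNA, 0 to 54 higher and 0 to 13 lower in sorted cells (most without a WT library), and 19 to 60 and 2 to 12 in the interaction. The median log2 fold change then ran from 0.012 to 0.15 in bulk RNA and from 0.49 to 1.62 in sorted cells.

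The limma fit with a weight per assay, chosen after the data were seen, called 15 and 0 in the interaction, and DESeq2 called 13 higher and 2 lower in sorted cells. The difference in promoter share between P14 and P7, in percentage points, was 18.4 for H4R3me2a, 16.5 for H3R8me2a, 14.2 for H4R3me1 and 46.1 for H3K27ac at a q-value of at most 0.01. With lists of equal length it was 16.3 for H4R3me2a, 13.0 for H3R2me2a, 14.2 for H3R8me2a, 13.8 for H4R3me1, 13.4 for H3K27ac and -4.33 for H3K4me3. Shorter lists hold fewer peaks by construction, and otherwise the cause was not tested. With 2 sorted libraries a genotype and a coefficient of variation of 0.767, members at few counts cannot be ordered.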
